A study of Mus musculus with 16 samples.

Results

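The reproductive homeobox (Rhox) genes are a family of transcription factor genes that lie together on the mouse X chromosome. The 7 members described here are *Rhox5* and *Rhox8*, known from somatic cells of the testis, and *Rhox1*, *Rhox6*, *Rhox9*, *Rhox10* and *Rhox13*, taken as the germ cell members. They were found by gene symbol among the 35983 genes of the expression table, which holds 35 genes with a Rhox symbol in all. Messenger RNA was sequenced from whole testes in 4 groups of 4 samples, 16 in all, on a mixed background of 129Sv and C57Bl/6J. Newborn testes at postnatal day 1 (P1) came from mutants in which *Nanos3-Cre*, active in fetal germ cells, acted on a floxed *Lrh1* allele opposite a null allele (*Lrh1* flox/-; *Nanos3-Cre*), and from controls of the same *Lrh1* flox/- genotype without Cre. These P1 controls therefore also carried only 1 working copy of *Lrh1*, the gene of the nuclear receptor LRH1 (NR5A2). Testes at P3 came from mutants in which *Dhh-Cre*, active in fetal Sertoli cells, acted on both floxed alleles (*Lrh1* flox/flox; *Dhh-Cre*), and from *Lrh1* flox/flox controls without Cre. Because no control carried a Cre, the deletion and the presence of Cre cannot be told apart. The sources used here do not say whether a sample was a single animal or a pool.

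Rhox proteins bind DNA through a homeodomain and are made mainly in testis, ovary, epididymis and placenta. Sertoli cells, the somatic nurse cells of the seminiferous tubule, use *Rhox5* and *Rhox8*, and *Rhox5* is a classical androgen-dependent gene that is switched on in these cells after birth. *Rhox10* acts in germ cells, where it promotes the formation of spermatogonial stem cells out of their fetal precursors, and *Rhox13* is made in prospermatogonia and spermatogonia. *Rhox6* and *Rhox9* are a closely related pair known from placenta and from fetal germ cells. In most other tissues the cluster is silenced by DNA methylation.

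The homeobox shows how far the members have moved apart from each other. The stretches below are 48 coding bases read from GENCODE M21 transcripts on GRCm38, around the part that encodes the DNA-contacting helix, and the capitals mark the codon at the place where most homeodomains have an asparagine. They are shown for all 7 members because reads can only be told apart where the sequences differ.
*Rhox8*: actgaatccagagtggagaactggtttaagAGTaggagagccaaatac
*Rhox5*: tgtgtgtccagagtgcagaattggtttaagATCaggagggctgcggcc
*Rhox10*: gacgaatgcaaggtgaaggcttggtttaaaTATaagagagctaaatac
*Rhox13*: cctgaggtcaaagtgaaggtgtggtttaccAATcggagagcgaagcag
*Rhox1*: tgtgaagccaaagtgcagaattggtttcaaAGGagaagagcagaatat
*Rhox6*: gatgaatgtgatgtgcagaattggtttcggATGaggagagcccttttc
*Rhox9*: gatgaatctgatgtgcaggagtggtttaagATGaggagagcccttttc
Only *Rhox13* of the 7 members had an asparagine codon at the marked place. *Rhox6* and *Rhox9* were identical at 43 of the 48 bases, whereas *Rhox6* and *Rhox13* were identical at 23. Over the whole transcripts, no stretch of 100 bases in *Rhox1*, *Rhox5*, *Rhox8*, *Rhox10* or *Rhox13* occurred in a transcript of another gene. *Rhox6* and *Rhox9* shared 62 such stretches with each other, 6.81% of those in *Rhox6* and 2.45% of those in *Rhox9*, so a small part of their reads could have been split between them.

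The members differed widely in level. All values are the authors' means of each group in FPKM (fragments scaled to transcript length and to the mapped total), so levels can be set side by side between genes. The table used holds no values per sample, so no spread, test or depth per sample was computed from it. A difference below is a difference of group means, and these means do not show its size relative to the spread between testes. *Rhox8* (ENSMUSG00000064137, chrX:37874778-37878944, minus strand) was the highest member in every group, with 21.5 FPKM in P1 *Nanos3-Cre* mutants, 29.7 FPKM in P1 controls, 9.72 FPKM in P3 *Dhh-Cre* mutants and 42.0 FPKM in P3 controls. In P3 controls, 97.6% of all genes in the table had a lower mean than *Rhox8*. *Rhox10* (ENSMUSG00000053909, chrX:38066475-38071691, plus strand) came next, with 2.79 and 5.79 FPKM in P1 mutants and controls and 4.57 and 3.26 FPKM in P3 mutants and controls. *Rhox13* (ENSMUSG00000050197, chrX:38121219-38129967, plus strand) and *Rhox1* (ENSMUSG00000071773, chrX:37213804-37222258, minus strand) followed in the third and the fourth place in all 4 groups. With no spread to hand, it cannot be said which neighbours in this order truly differ.

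*Rhox5* (ENSMUSG00000095180, chrX:37804842-37808876, plus strand), the other somatic member, was barely present. Its means were 0.194 FPKM in P1 mutants, 0.226 FPKM in P1 controls, 0.079 FPKM in P3 mutants and 0.13 FPKM in P3 controls. *Rhox8* was 323-fold higher than *Rhox5* in P3 controls and 131-fold higher in P1 controls. *Rhox9* (ENSMUSG00000068048, chrX:37899097-37901770, minus strand) stayed similarly low, at 0.139 and 0.326 FPKM in P1 mutants and controls and 0.059 and 0.116 FPKM in P3 mutants and controls. *Rhox6* (ENSMUSG00000006200, chrX:37826910-37829857, plus strand) had 0.731 FPKM in P1 mutants and 0.809 FPKM in P1 controls, but 0.157 FPKM in P3 mutants and 0.019 FPKM in P3 controls. Thus the 2 somatic members stood far apart, and *Rhox8* alone made up 85.6% of the summed FPKM of the 7 members in P3 controls.

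**Figure D1:**
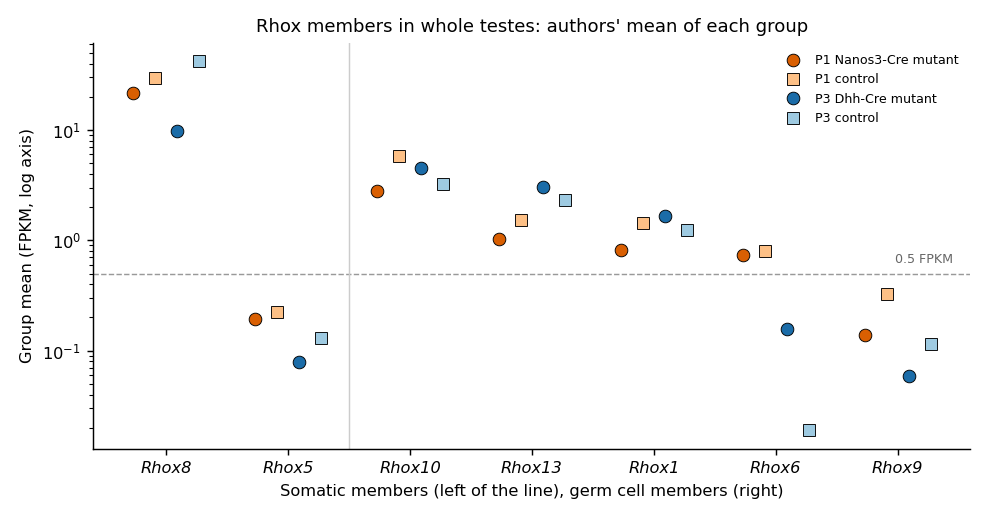
Group means of the 7 *Rhox* members in FPKM on a log axis, with P1 *Nanos3-Cre* mutants, P1 controls, P3 *Dhh-Cre* mutants and P3 controls from left to right within each gene, circles for mutants and squares for controls. *Rhox8* lies between 9.72 and 42.0 FPKM, while *Rhox5* lies between 0.079 and 0.226 FPKM in every group.

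At P3 the question was how the members stood after loss of *Lrh1* in Sertoli cells. *Rhox8* averaged 9.72 FPKM in *Dhh-Cre* mutants and 42.0 FPKM in controls, a 4.33-fold lower mean. Its log2 ratio of mutant over control, taken here and below after adding 0.1 FPKM to each mean, was -2.10. Among the 16923 genes that averaged 0.5 FPKM or more over both P3 groups, only 0.414% had a lower ratio. The 4 members that reached this level were *Rhox1*, *Rhox8*, *Rhox10* and *Rhox13*, and of these only *Rhox8* was past 2-fold lower, against 3.58% of all genes kept. None of the 4 was past 2-fold higher, against 4.75% of all genes kept. The median ratio of all genes kept was 0.00 on the log2 scale.

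Markers of Sertoli cells were lower beside *Rhox8*. Of 21 Sertoli cell markers, 19 had a lower mean in *Dhh-Cre* mutants, 14 of them past 2-fold, with a median log2 ratio of -1.45, and their summed level was 841 FPKM in mutants and 2205 FPKM in controls. The exceptions with higher means were *Trf* and *Cldn11*, named after their values were seen. *Inha*, which encodes the alpha subunit of inhibin, had 211.8 FPKM in mutants and 498 FPKM in controls, and *Cst9* had 55.5 FPKM in mutants and 187 FPKM in controls. Only *Amh*, which encodes anti-Müllerian hormone, went below *Rhox8* among the 21 markers, with 65.7 FPKM in mutants and 291 FPKM in controls (log2 ratio -2.15). Set against the median of the Sertoli cell markers, *Rhox8* remained lower by a log2 ratio of -0.65, which is short of 2-fold. In a whole testis, fewer cells of a type and less RNA per cell cannot be told apart. *Rhox5*, in contrast, had 0.079 FPKM in mutants and 0.13 FPKM in controls, a log2 ratio of -0.36 at a level too low to read a direction.

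The germ cell members that were well expressed lay on the other side at P3. *Rhox10* had 4.57 FPKM in *Dhh-Cre* mutants and 3.26 FPKM in controls, a log2 ratio of 0.47. *Rhox13* had 3.02 FPKM in mutants and 2.32 FPKM in controls (log2 ratio 0.36). *Rhox1* had 1.66 FPKM in mutants and 1.23 FPKM in controls (log2 ratio 0.40). These 3 genes were higher by similar small amounts, and 50.2% of all genes kept had a higher mean in mutants. *Rhox6*, at 0.157 FPKM in mutants and 0.019 FPKM in controls, was higher by a log2 ratio of 1.11 that depended strongly on the amount added, and *Rhox9* was lower at 0.059 FPKM in mutants and 0.116 FPKM in controls. Of 14 germ cell markers kept, 9 were higher and 5 were lower in *Dhh-Cre* mutants, none past 2-fold, with a median log2 ratio of 0.06 and summed levels of 149.7 FPKM in mutants and 138 FPKM in controls. *Rhox1*, *Rhox10* and *Rhox13* each had a higher ratio than 12 of these 14 markers. As a result *Rhox8* made up 50.5% of the members' summed FPKM in *Dhh-Cre* mutants, and the ratio of *Rhox8* to *Rhox10* was 2.13 in mutants and 12.9 in controls.

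Markers of several other cell types had higher means in *Dhh-Cre* testes. All 6 interstitial mesenchyme markers, all 5 macrophage markers, all 5 endothelial markers and all 7 surface and duct epithelium markers had higher means in mutants, with median log2 ratios of 1.06, 1.00, 0.74 and 1.20. Leydig cell markers were higher for 5 of 6 genes (median 0.57) and peritubular myoid markers for 4 of 5 (median 0.53). Among germ cell stages, 9 of 12 undifferentiated spermatogonia markers kept were lower (median -0.34) and 5 of 7 differentiating spermatogonia markers kept were higher (median 0.26). No marker of these lists was at 0 in either group. The part of these cell types in the values of the *Rhox* genes was not tested.

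**Figure D2:**
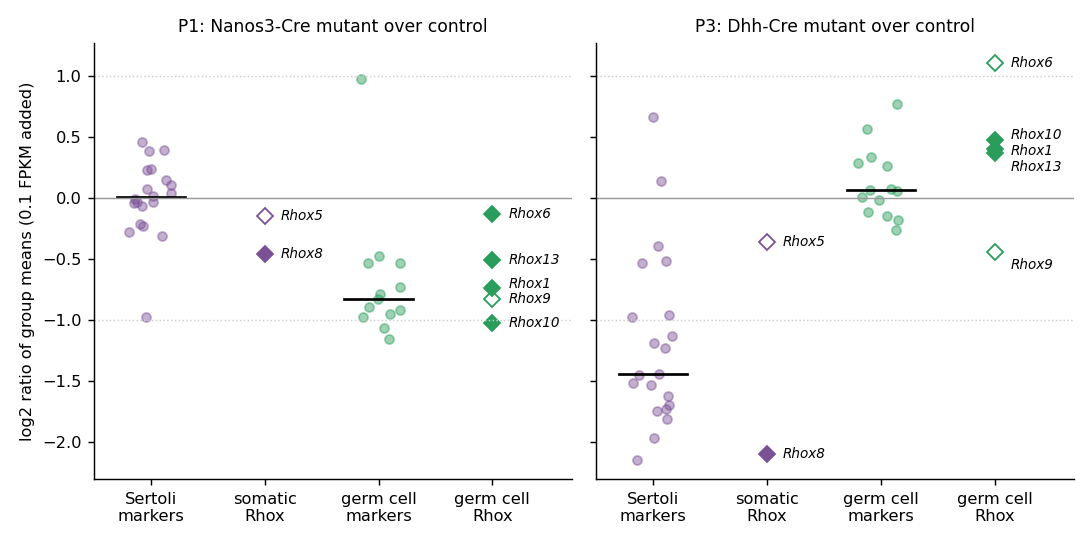
Log2 ratios of group means, mutant over control, at P1 (left) and P3 (right) for Sertoli and germ cell markers (circles, one per gene averaging 0.5 FPKM or more, black line at the median) and for the *Rhox* members (diamonds, open where the mean was below 0.5 FPKM). At P3 *Rhox8* lies near the bottom of the Sertoli cell markers (median -1.45). At P1 *Rhox1*, *Rhox9* and *Rhox10* lie near the median of the germ cell markers (-0.83), while *Rhox13* (-0.51) and *Rhox6* (-0.13) lie above most of these markers.

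At P1 the question was how the members stood after loss of *Lrh1* in germ cells. All 7 members had a lower mean in *Nanos3-Cre* mutants than in controls, and 49.6% of all genes detected in either P1 group did so (45.4% of those kept). Of the 5 members averaging 0.5 FPKM or more, namely *Rhox1*, *Rhox6*, *Rhox8*, *Rhox10* and *Rhox13*, only *Rhox10* was past 2-fold lower, against 1.39% of the 16121 genes kept, and none was past 2-fold higher, against 1.15%. The median ratio of all genes kept was 0.02 on the log2 scale. *Rhox10* averaged 2.79 FPKM in *Nanos3-Cre* mutants and 5.79 FPKM in controls, 2.08-fold lower, with a log2 ratio of -1.03 that 1.27% of genes kept went below. This value stood close to the limit of 2-fold. It fell just short, at -0.995, once each column was scaled to the same total before 0.1 was added. *Rhox1* had 0.815 FPKM in mutants and 1.43 FPKM in controls, a log2 ratio of -0.74. *Rhox13* had 1.03 FPKM in mutants and 1.52 FPKM in controls, a log2 ratio of -0.51. *Rhox9* had 0.139 FPKM in mutants and 0.326 FPKM in controls, and *Rhox6* differed least of the germ cell members, with 0.731 FPKM in mutants and 0.809 FPKM in controls. Together the 5 germ cell members summed to 5.50 FPKM in mutants and 9.87 FPKM in controls.

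Germ cell markers as a whole were lower as well. Of 13 germ cell markers kept at P1, 12 had a lower mean in *Nanos3-Cre* mutants, 2 of them past 2-fold (*Stk31* and *Tex101*). The median log2 ratio of the 13 was -0.83, with summed levels of 35.8 FPKM in mutants and 64.7 FPKM in controls. *Dazl*, an RNA-binding protein of germ cells, had 6.86 FPKM in mutants and 12.9 FPKM in controls, and *Tex15* had 7.71 FPKM in mutants and 15.1 FPKM in controls. The 1 marker with a higher mean was *Nanos3*, whose promoter drives the Cre. Relative to the median of these markers, *Rhox10* was at a log2 ratio of -0.20, *Rhox9* at 0.00, *Rhox1* at 0.09, *Rhox13* at 0.32 and *Rhox6* at 0.70. Thus *Rhox1*, *Rhox6* and *Rhox13* lay above the median of the germ cell markers, while *Rhox10*, with 2 of the 13 markers lower than it, was below. Undifferentiated spermatogonia markers were lower for 8 of 11 genes kept (median -0.33), and differentiating spermatogonia markers for 3 of 5 (median -0.01).

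*Rhox8* had a lower mean at P1 too, in mutants whose Cre acts in germ cells. It averaged 21.5 FPKM in *Nanos3-Cre* mutants and 29.7 FPKM in controls, 1.38-fold lower, with a log2 ratio of -0.46 that 4.93% of genes kept went below. Sertoli cell markers at P1 were evenly split, with 10 of 20 lower, a median log2 ratio of 0.01 and summed levels of 2120 FPKM in mutants and 1952 FPKM in controls. Only 1 of these 20 markers, *Defb36*, had a lower ratio than *Rhox8*. These means do not show whether this difference exceeds the spread between testes. Among other cell types, myoid markers were lower for 4 of 5 genes (median -0.47), while macrophage markers and surface and duct epithelium markers were higher for 5 of 5 and 7 of 7 genes (medians 0.60 and 0.59). The medians were 0.10 for Leydig cell, 0.15 for interstitial mesenchyme and 0.04 for endothelial markers. Their part in the values of the *Rhox* genes was not tested.

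**Figure D3:**
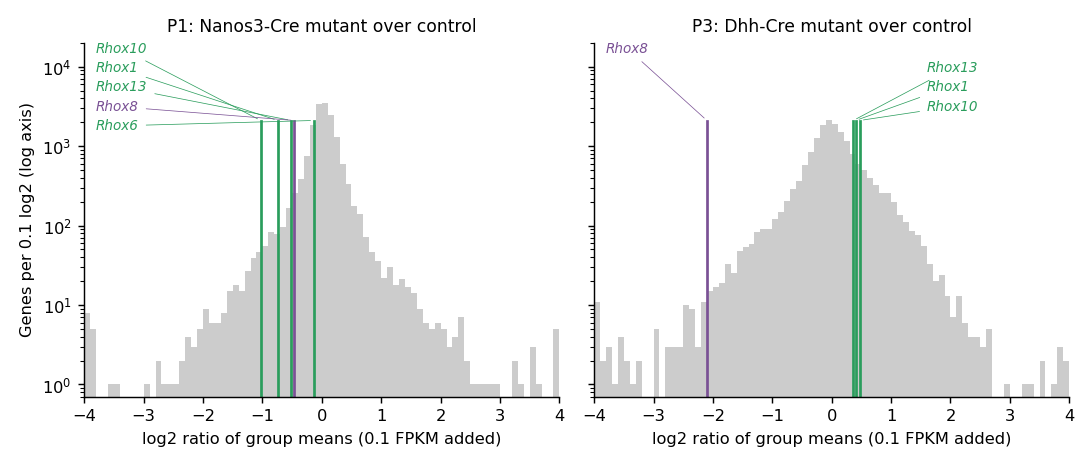
Number of genes per 0.1 log2 unit (log axis) against the log2 ratio of group means, mutant over control, for all genes averaging 0.5 FPKM or more, with genes beyond either end in the last bars and the *Rhox* members that passed this minimum as vertical lines (purple somatic, green germ cell). At P3 *Rhox8* stands at -2.10 in the lower tail while *Rhox1*, *Rhox10* and *Rhox13* stand between 0.36 and 0.47, and at P1 all 5 members shown are below 0.

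*Lrh1* itself gave only a limited check of the labels in these means. *Nr5a2* had 0.491 FPKM in *Nanos3-Cre* mutants and 0.764 FPKM in controls at P1, and 0.609 FPKM in *Dhh-Cre* mutants and 1.15 FPKM in controls at P3. Both mutants were thus lower than their controls, in FPKM that count the entire gene and every cell type.

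Both controls were also set side by side, P3 over P1. Age and *Lrh1* genotype (flox/flox against flox/-) changed together between them, as did RNA input for 3 of the 4 P1 controls, and these cannot be told apart. The median of all genes kept was at 0.15, or at 0.39 when each column was scaled to the same total. *Rhox8* had 42.0 FPKM in P3 controls and 29.7 FPKM in P1 controls (log2 ratio 0.50), and *Rhox13* had 2.32 FPKM in P3 controls and 1.52 FPKM in P1 controls (log2 ratio 0.58). *Rhox10* lay the other way, with 3.26 FPKM in P3 controls and 5.79 FPKM in P1 controls (log2 ratio -0.81). *Rhox6* differed most, at 0.019 FPKM in P3 controls and 0.809 FPKM in P1 controls, 42.6-fold lower in P3 controls, a ratio that rests on a mean near 0. No member averaging 0.5 FPKM or more over both controls was past 2-fold, against 3.89% of 16521 genes lower and 6.36% higher, and *Rhox6* fell short of that minimum. Over the same contrast all 14 germ cell markers kept were higher in P3 controls, with a median log2 ratio of 1.15, and every germ cell member had a lower ratio than that median. *Rhox10*, *Rhox1*, *Rhox6* and *Rhox9* had a lower ratio than all 14 of them. For *Rhox1* the log2 ratio was -0.20 as deposited and 0.02 with equal column totals, so its direction is not set.

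The other *Rhox* genes mostly leaned the same way as the germ cell members. From *Rhox1* to *Rhox13* the members span 916 kb of chromosome X. The table holds 28 other *Rhox* genes, most of them copies of *Rhox2*, *Rhox3* and *Rhox4* at low levels. The 28 include *Rhox7-ps1*, which lies beyond this span. At P1, 25 of these 28 had a lower mean in *Nanos3-Cre* mutants, while 49.6% of all detected genes were lower. The median log2 ratio of the 28 was -0.51, with summed levels of 6.41 FPKM in mutants and 12.8 FPKM in controls. At P3, 22 of the 26 that were detected had a higher mean in *Dhh-Cre* mutants, at a median of 0.32 and summed levels of 12.0 FPKM in mutants and 9.07 FPKM in controls, while 53.4% of all detected genes were higher. All 8 *Rhox4* copies were lower in P1 mutants and higher in P3 mutants. All 8 *Rhox2* copies were lower in P1 mutants, but 4 were lower and 4 higher in P3 mutants. The *Rhox2*, *Rhox3* and *Rhox4* copies share between 10.7% and 98.1% of their stretches of 100 bases with other genes, so values of single copies are uncertain and their shared direction is not independent.

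Few of these other genes reached 0.5 FPKM in any group. *Rhox2-ps*, a pseudogene, was the highest, with 2.07 FPKM in P1 mutants, 4.08 FPKM in P1 controls, 4.68 FPKM in P3 mutants and 3.25 FPKM in P3 controls. *Rhox7-ps2* had 0.825 and 1.81 FPKM in P1 mutants and controls and 2.09 and 1.86 FPKM in P3 mutants and controls. *Rhox2d* had 0.541 and 1.33 FPKM at P1 and 0.364 and 0.279 FPKM at P3, in mutants and controls in that order. *Rhox2a*, *Rhox2b*, *Rhox4e* and *Rhox7-ps1* reached that level in some group and stayed below *Rhox2-ps* in every group. These pseudogenes and copies followed *Rhox10* in being lower in *Nanos3-Cre* mutants, with *Rhox7-ps1*, which lies beyond the cluster, as the exception at 0.238 FPKM in P1 mutants and 0.173 FPKM in P1 controls.

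**Figure D4:**
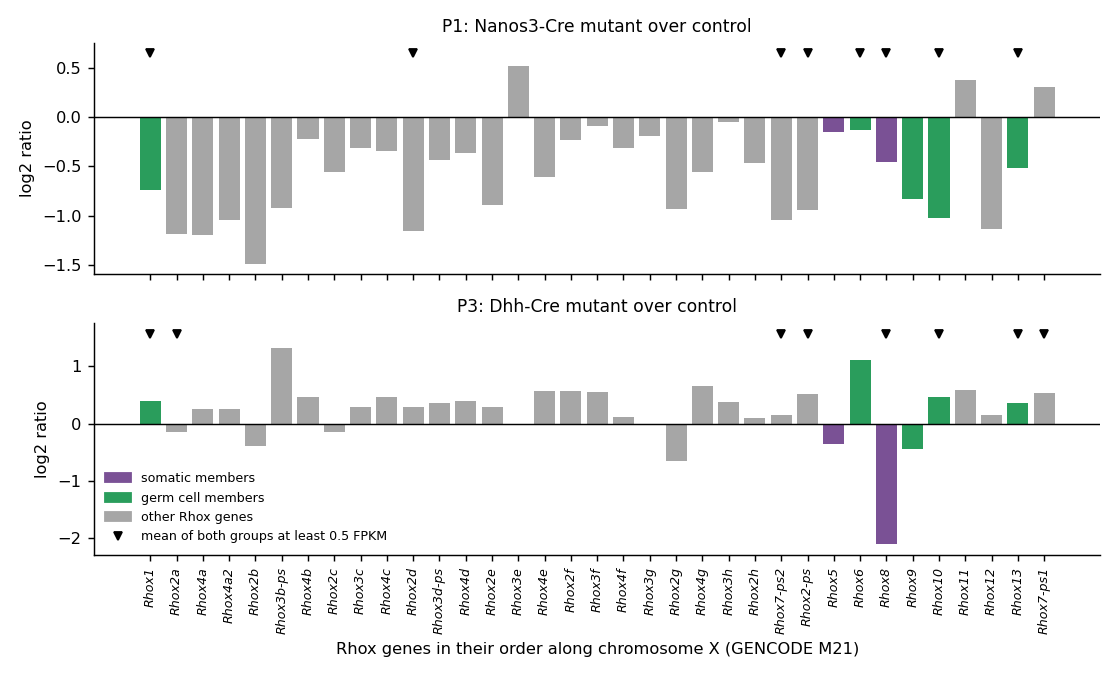
Log2 ratios of group means (0.1 FPKM added), mutant over control, for all 35 *Rhox* genes in their order along chromosome X at P1 (top) and P3 (bottom), with triangles over genes averaging 0.5 FPKM or more. At P1, 32 of the 35 bars point down, and at P3 *Rhox8* has a long downward bar (-2.10) among mostly upward ones.

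Genes on either side of the cluster had ratios of both signs. Of the 5 nearest protein-coding genes on each side, 8 of 10 averaged 0.5 FPKM or more. At P1 their log2 ratios ran between -0.30 and 0.13 (median -0.09), with 5 lower and 3 higher in *Nanos3-Cre* mutants. At P3 they ran between -1.17 and 0.64 (median 0.20), with 2 lower and 6 higher in *Dhh-Cre* mutants. The low end at P3 was *Gm9*, the gene nearest to *Rhox1*, with 1.30 FPKM in mutants and 3.07 FPKM in controls. Of 6 X-linked germ cell genes outside the cluster that passed the minimum at P1, 5 were lower in *Nanos3-Cre* mutants, 3 of them past 2-fold (*Taf7l*, *Usp26* and *Nxf2*), with a median log2 ratio of -0.99. *Taf7l*, a germ cell relative of a general transcription factor subunit, had 2.23 FPKM in P1 mutants and 4.93 FPKM in P1 controls, and the deubiquitinase gene *Usp26* had 1.42 FPKM in P1 mutants and 3.19 FPKM in P1 controls. At P3, 4 of 7 such genes were lower and 3 higher in *Dhh-Cre* mutants (median -0.06). The P1 median of the 6 listed X-linked genes thus lay close to the log2 ratio of *Rhox10* (-1.03), and that of the germ cell markers was -0.83. These 6 genes are from a list chosen with earlier results known and do not stand for all X-linked germ cell genes.

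The promoters of 4 of the 7 members were found in the RefSeq table of GRCm38.p6, and those of the 3 germ cell members among them are shown because their ratios shared a sign in each mutant. Each runs 250 bases before to 50 bases after the annotated start, and the capitals mark AGGTCA on either strand. NR5A receptors share this half-site with other nuclear receptors, and other forms of it, such as AGGCCA, were not searched.
*Rhox1*, chrX:37222209-37222508, minus strand: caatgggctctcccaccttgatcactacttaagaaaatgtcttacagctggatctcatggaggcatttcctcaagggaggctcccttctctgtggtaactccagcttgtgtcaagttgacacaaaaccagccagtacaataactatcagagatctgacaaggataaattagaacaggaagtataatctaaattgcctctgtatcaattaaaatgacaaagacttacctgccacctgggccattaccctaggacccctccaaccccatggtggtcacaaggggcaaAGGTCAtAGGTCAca
*Rhox10*, chrX:38066225-38066524, plus strand: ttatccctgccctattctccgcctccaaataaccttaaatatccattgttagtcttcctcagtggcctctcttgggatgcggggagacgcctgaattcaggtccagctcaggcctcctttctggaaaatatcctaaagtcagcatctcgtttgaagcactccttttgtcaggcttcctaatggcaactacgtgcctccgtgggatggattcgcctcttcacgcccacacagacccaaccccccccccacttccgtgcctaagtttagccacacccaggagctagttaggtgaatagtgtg
*Rhox13*, chrX:38120590-38120889, plus strand: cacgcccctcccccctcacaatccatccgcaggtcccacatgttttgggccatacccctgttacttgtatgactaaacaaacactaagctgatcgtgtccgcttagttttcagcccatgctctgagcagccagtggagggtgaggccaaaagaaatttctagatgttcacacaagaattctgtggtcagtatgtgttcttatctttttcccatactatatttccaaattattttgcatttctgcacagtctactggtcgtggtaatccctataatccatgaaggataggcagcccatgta
*Rhox1* held AGGTCA 2 times, at 36 and 43 bases after the start, and 1 of these was part of AAGGTCA. *Rhox10*, *Rhox13* and *Rhox5* held none. AGGTCA occurred in 16.3% of 32817 promoters of the same length, AAGGTCA in 4.72% and the longer CAAGGTCA, found in none of the 4, in 1.56%. The dinucleotide CG, the place of DNA methylation, was counted 0 times in *Rhox1*, 9 times in *Rhox10* and 5 times each in *Rhox13* and *Rhox5*, against a median of 7 over all promoters. The RefSeq start of *Rhox5* lies 50.2 kb upstream of the gene position given above, and that of *Rhox13* 379 bases upstream, so their windows are not next to those positions. A match is a description of these letters only.

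Among genes of the pathways around the members, the transcription factors reported to act on *Rhox5* or *Rhox8* in Sertoli cells were mostly lower at P3. Of 7 such genes, 6 had a lower mean in *Dhh-Cre* mutants, 2 of them past 2-fold (median log2 ratio -0.83). These were *Sox9*, with 15.0 FPKM in mutants and 50.1 FPKM in controls, and *Sox8*, with 21.0 FPKM in mutants and 57.4 FPKM in controls, both transcription factors of Sertoli cell identity. Both are also among the Sertoli cell markers counted above, so they add no separate result. The 6 lower genes also include *Nr5a2* (*Lrh1*), the gene deleted in these mutants. *Gata4* had 63.5 FPKM in mutants and 116 FPKM in controls, and *Nr5a1*, the paralog of *Lrh1*, had 36.8 FPKM in mutants and 65.3 FPKM in controls. At P1, 5 of these 7 genes were higher in *Nanos3-Cre* mutants (median 0.11).

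Androgen-dependent Sertoli cell genes other than *Rhox5* were split at P3, with 3 of 5 lower in *Dhh-Cre* mutants (median log2 ratio -0.06). *Aard* had 94.3 FPKM in mutants and 331 FPKM in controls, and *Tubb3*, a tubulin gene, had 11.4 FPKM in mutants and 29.2 FPKM in controls. *Cldn3*, a tight junction gene, had 17.8 FPKM in mutants and 5.44 FPKM in controls. At P1 4 of the 5 were lower in *Nanos3-Cre* mutants (median -0.06). All 5 genes of this list averaged 0.5 FPKM or more over both groups at each age, whereas *Rhox5* stayed below 0.5 FPKM. Not all of them were high, and *Cldn3* had 0.694 FPKM in P1 controls.

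Gonad homeobox genes outside the cluster lay on the other side from *Rhox8* at P3. At P3 7 of the 10 kept were higher in *Dhh-Cre* mutants and 3 were lower (median log2 ratio 0.76), and *Emx2*, *Meis2* and *Lhx9*, developmental regulators of the urogenital ridge and other organs, were past 2-fold higher. *Emx2* had 14.7 FPKM in mutants and 4.21 FPKM in controls. At P1 5 of the 9 kept were higher in *Nanos3-Cre* mutants (median 0.06). Enzymes that set or remove DNA methylation had small ratios, with 5 of 7 lower in *Dhh-Cre* mutants (median -0.22) and 4 of 7 lower in *Nanos3-Cre* mutants (median -0.01). *Uhrf1*, which brings the maintenance methyltransferase to DNA, had 27.3 FPKM in *Dhh-Cre* mutants and 34.9 FPKM in controls, and *Dnmt1*, that methyltransferase, had 22.9 FPKM in mutants and 28.5 FPKM in controls.

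The profile of each of 4 members over the 4 group means was compared with those of 16661 genes at or above a mean of 0.5 FPKM, by the root mean square difference of log2 values after each gene's own mean was subtracted. Genes nearest to *Rhox8* were *Rnf207*, *Hsd17b3*, *Fshr*, *Cbln4* and *Acp7*, at differences between 0.06 and 0.13. *Fshr* encodes the receptor through which follicle-stimulating hormone acts on Sertoli cells, and it had 4.95 FPKM in P3 *Dhh-Cre* mutants and 19.7 FPKM in P3 controls. *Hsd17b3*, the enzyme that makes testosterone, which fetal Sertoli cells express, had 26.0 FPKM in P3 mutants and 116 FPKM in P3 controls. Genes nearest to *Rhox10* were *Gm5776*, *Gm7511*, *Scarna2*, *Ddx25* and *Fbxo2* (0.10 to 0.13), of which *Ddx25* encodes an RNA helicase of the testis. Genes nearest to *Rhox13* were *Matn4*, *Gm43138*, *Zfp264*, *Gm15186* and *Mir6993* (0.04 to 0.06), and those nearest to *Rhox5* were *Depdc1a*, *Vgll3*, *Rfc4*, *Psmc3ip* and *Atp5c1* (0.01 to 0.03). The profile of *Rhox5* was flattened by the 0.1 FPKM added to its low means. Likeness over 4 points is a loose measure.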

How the data were processed

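Polyadenylated mRNA of whole testes was sequenced with stranded libraries (16 samples). RNA input was 500 ng for 3 samples and 400 ng for 1 sample of each P1 group, and 400 ng for all P3 samples. The submitters' processing notes name cutadapt 1.18 and Trim Galore 0.6.0 for trimming, FastQC 0.11.8 for quality and STAR 2.7.2a for alignment to GRCm38 (mm10), and the methods add stranded gene counting with RSubread. FPKM values were deposited by the authors as the mean of each group, with no values per sample. Fold changes and adjusted p-values of the authors' own comparisons stand in separate tables and were not used. Because only means were used, the planned limma test was not run, no depth per sample or interval was computed, and no sample could be checked on its own.

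Log2 ratios were log2(mean + 0.1 FPKM) of mutant minus control. This understates changes of low genes, and folds are ratios of the means as deposited. Genes were kept where the 2 groups compared averaged 0.5 FPKM or more, and 2-fold means a log2 ratio of at least 1 in size. The 10 lists of cell type markers and 5 lists of pathway genes, and the members themselves, were chosen with earlier results of these data known. Genes named are the 7 members, other *Rhox* genes that reach 0.5 FPKM in a group, the 2 highest genes of a list and genes of it past 2-fold at P3 (up to 4 a list), the 5 genes most like each of 4 members, and neighbours of the cluster. Others (*Trf*, *Cldn11*, *Defb36*, *Nanos3*, *Gm9*, *Stk31*, *Tex101*, *Nxf2*) were named after their values were seen. The values of 1 further gene are not reported here. Positions and transcripts are from GENCODE M21 on GRCm38, which held 99.7% of the gene IDs. Alternatives were other amounts added, other minimums, centring on all genes or on cell type markers, and equal column totals. For the last, each column was scaled to sum to 1000000 before 0.1 was added. Python 3.11.15, numpy 2.4.6, pandas 2.3.3 and matplotlib 3.10.9 were used. Only the log2 ratio and the likeness measure were tested on simulated data.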

Additional observations from a re-analysis of the deposited data

How the results depend on the processing

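The 21 ratios of single members were computed under 4 alternatives that can change a ratio, 84 values in all, of which 8 moved by over 1.5-fold. These 8 belong to *Rhox6* and *Rhox9*, both at low levels, and 1 value, *Rhox1* between the controls, changed sign. With no minimum level, 2 members (*Rhox6* and *Rhox8*) were past 2-fold at P3 and 1 (*Rhox6*) between the controls. With 1 FPKM added, and with equal column totals, 0 members were past 2-fold at P1. Set against the median of the markers of their cell type, 0 members were past 2-fold at P3 and 0 at P1. Of the 14 ratios set against markers, 7 moved by over 1.5-fold and 4 changed sign, namely *Rhox5* at P3 (1.08) and *Rhox1* (0.090), *Rhox6* (0.70) and *Rhox13* (0.32) at P1. *Rhox8* then had a log2 ratio of -0.65 at P3, *Rhox10* of -0.20 at P1, and the median of the 5 germ cell members at P1 was 0.090, against -0.74 without that step. No paired analysis was possible because the columns are group means and carry no replicate numbers. Leaving out replicates was not run for the same reason. Precision and depth of each mean are unknown, and levels under 0.5 FPKM are the least certain.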
